A study of Mus musculus and Rattus norvegicus with 8 samples.

Results

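The AP-1 proteins of the Fos and Jun families, the related stress factor Atf3 and the small Maf proteins Maff and Mafk were followed as 10 genes in ventilated rodent lung. They were found as the probe sets whose only annotated symbol is Fos, Fosb, Fosl1, Fosl2, Jun, Junb, Jund, Atf3, Maff or Mafk. That gave 14 of 12422 probe sets on the mouse arrays, covering all 10 genes, and 15 of 8740 on the rat arrays, covering 8 genes; Fosb and Maff were not found on the rat arrays by this rule. The series holds 8 lung RNA samples on 1 array each, from male animals. Mechanically ventilated C57BL6 mice of 7 to 8 weeks (2 arrays) had received 6 hours of a tidal volume of 17 ml/kg, or 2 hours of 35 ml/kg, and the labels do not tie an array to a regimen, so both form 1 group. They were compared with spontaneously breathing mice of the same strain and age (2 arrays). Wistar rats of 8 weeks were ventilated at 12 ml/kg for 5 hours with room air (2 arrays) and compared with rats that breathed by themselves through the same kind of tracheal cannula (2 arrays); no cannula is mentioned for the control mice. The labels do not say that replicates came from separate preparations, so p-values measure the spread between these arrays, and that spread may be technical. Between the ventilated mouse arrays the spread may also hold a difference of regimen, which cannot be told apart here.

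Fos and Jun proteins carry a basic region that touches DNA and a leucine zipper through which they pair. Jun proteins pair with themselves, with Fos proteins or with ATF proteins, whereas Fos proteins need a Jun partner, and the pairs bind the AP-1 element. Fos, Fosb, Jun and Junb are immediate early genes, transcribed within minutes of growth factor, cytokine or stretch signals that pass through MAP kinases, while Jund is present in most resting cells. Atf3 is a stress-induced member of the same superfamily that can repress as a homodimer. Small Maf proteins have a zipper but no activation domain; they act as repressors when paired with each other and as activators when paired with Nrf2 and other CNC proteins.

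In ventilated mouse lung, Atf3, Maff, Jun, Junb, Mafk and Jund each had both ventilated arrays above both controls, with log2 differences between 0.49 for Jund and 2.65 for one of the Atf3 probe sets. Fos, Fosb, Fosl1 and Fosl2 overlapped between the groups. In ventilated rat lung Atf3 was again higher on both ventilated arrays, as was 1 of the 3 Fos probe sets, Atf3 by 0.59 on the log2 scale. Mafk, both Fosl2 probe sets and 2 of the 4 Jun probe sets were lower on both ventilated rat arrays, and Junb and Jund overlapped. No member passed the test over all probe sets in either species, so each of these is a measured difference without a call. By probe set, both ventilated arrays lay above both controls for 8 of 13 tested in the mouse, against 13.6% of all. In the rat they lay above for 2 of 14 tested and below for 5, against 27.1% and 27.5% of all.

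The differences were tested with limma on log2 signals over every probe set above a low-signal limit, calls being made at an adjusted p (Benjamini-Hochberg) under 0.05. The limit was the 25th percentile of signals, 14.2 for mouse arrays and 11.5 for rat arrays, and lower signals were raised to it before log2 was taken, as a floor. In the mouse 0% of 9474 probe sets were called, with 150 higher and 96 lower at an unadjusted p under 0.05. In the rat 5.96% of 6624 were called, and 0 were called when any 1 of the 4 rat arrays was left out. Signals are printed after normalisation, without the floor, and those of different probe sets are not on a common scale.

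Some arrays stood apart from their labels in ways that touch these results. Across mouse probe sets, ventilated 1 and ventilated 2 correlated at a Pearson r of 0.91. Ventilated 2 and control 1 were more alike, at 0.96, as were ventilated 1 and control 2, at 0.92. Spike-in controls added at hybridisation were 2.62 and 0.960 times the control mean on ventilated mouse arrays 1 and 2 (median of 9 probe sets). The signals of 14 neutrophil marker genes, all above the low-signal limit, summed to 10634 and 2226 on ventilated arrays 1 and 2. Control arrays 1 and 2 gave 1319 and 2557, so the ventilated sums were 5.49 and 1.15 times the control mean. Of the 14, 4 were higher and 0 lower on both ventilated arrays, against 13% and 14.5% of all mouse genes tested. The 2 brightest, S100a8 and S100a9, read 4267 and 2744 on ventilated 1, while Ltf, Elane and Mpo did not exceed both controls there. In the rat, 12 T cell markers, with Cd28 under the limit, summed to 7495 and 8292 on ventilated arrays 1 and 2, against 904 and 777 on control arrays 1 and 2, or 8.92 and 9.86 times the control mean. Among 8 rat fat markers, with Plin1 under the limit, 5 were higher and 2 lower on both ventilated arrays, against 27.8% and 27.2% of all rat genes tested. The fat marker sum was 1.95 and 2.11 times the control mean. Ucp1, the brown fat uncoupling gene, read 1216 and 1182 on ventilated arrays 1 and 2, against 75.2 and 58.9 on control arrays 1 and 2, while Lpl and Lep were the 2 that were lower. Skeletal muscle markers summed to 1.59 and 1.57 times the control mean in ventilated rats, and endothelial markers to 0.606 and 0.576 times. In the same rats smooth muscle and fibroblast markers summed to 0.674 and 0.649 times and lung epithelial markers to 0.806 and 0.880 times. Of the 11 smooth muscle and fibroblast markers, 7 were lower and 1 higher on both ventilated arrays, against 27.2% and 27.8% of all rat genes tested. Col1a1, Col1a2, Col3a1 and Myh11 had log2 differences of -0.66, -1.37, -0.95 and -1.53. Acta2, Tagln and Cnn1 overlapped between the groups, at 0.062, 0.097 and -0.11. On the ventilated mouse arrays smooth muscle and fibroblast markers summed to 0.444 and 1.29 times the control mean, and cardiac markers summed to 3859 and 3192 on ventilated arrays 1 and 2, against 3977 and 7537 on control arrays 1 and 2. All 6 mouse and 9 rat lung epithelial markers found were above the limit; the surfactant gene Sftpc held the same top normalised value on all 4 mouse arrays, so a sum over the mouse markers says nothing of their change and is not given. The part of these shifts in the member values was not tested, and in whole lung a change in the number of cells of a type and a change in RNA per cell cannot be told apart.

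The promoters of 4 members are shown because Atf3 and Maff had the largest differences in the mouse, and because Jun and Mafk were higher in ventilated mice and lower in ventilated rats at their brightest probe sets. The windows are mouse RefSeq sequence of build GRCm38.p6, from 250 bases before to 50 bases after the start site, written in the direction of transcription. Windows were found for 9 of the 10 members, 11 in all because Maff has 3. Motifs were searched on both strands: the AP-1 element TGANTCA, the cAMP response element TGACGTCA, the antioxidant element TGACNNNGC, the GC box GGGCGG, the TATA box TATAAA, the CCAAT box and the CArG box of serum response factor. Capitals mark matches to any of these other than the GC box.
Atf3, chr1:191183284-191183583, minus strand: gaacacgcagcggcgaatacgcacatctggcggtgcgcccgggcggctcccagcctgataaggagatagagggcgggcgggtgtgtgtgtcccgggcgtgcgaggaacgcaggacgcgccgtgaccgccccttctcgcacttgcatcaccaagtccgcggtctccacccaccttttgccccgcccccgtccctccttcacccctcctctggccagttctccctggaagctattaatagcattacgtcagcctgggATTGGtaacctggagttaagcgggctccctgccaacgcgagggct
Jun, chr4:95052173-95052472, minus strand: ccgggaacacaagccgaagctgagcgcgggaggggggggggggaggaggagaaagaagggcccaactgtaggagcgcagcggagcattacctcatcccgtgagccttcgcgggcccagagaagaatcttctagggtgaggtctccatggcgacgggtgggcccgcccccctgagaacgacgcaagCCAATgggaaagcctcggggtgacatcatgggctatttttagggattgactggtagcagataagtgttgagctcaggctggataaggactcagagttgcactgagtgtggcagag
Maff, chr15:79347270-79347569, plus strand: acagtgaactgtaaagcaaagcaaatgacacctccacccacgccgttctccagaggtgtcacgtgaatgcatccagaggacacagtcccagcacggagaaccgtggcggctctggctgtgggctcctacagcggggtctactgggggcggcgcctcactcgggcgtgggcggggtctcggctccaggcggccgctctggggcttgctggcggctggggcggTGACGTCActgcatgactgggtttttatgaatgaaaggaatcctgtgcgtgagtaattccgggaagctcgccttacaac
Mafk, chr5:139791286-139791585, plus strand: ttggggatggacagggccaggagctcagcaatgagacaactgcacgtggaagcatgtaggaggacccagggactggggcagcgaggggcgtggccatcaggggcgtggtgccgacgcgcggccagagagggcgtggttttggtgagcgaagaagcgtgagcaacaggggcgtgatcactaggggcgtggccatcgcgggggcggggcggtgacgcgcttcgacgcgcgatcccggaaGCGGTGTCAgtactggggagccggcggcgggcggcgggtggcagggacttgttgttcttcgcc

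In these windows Maff held the cAMP response element at position -29 from its start site, a match present in 1.79% of 32851 promoters of the same length. Mafk held the antioxidant element at position -13 on the opposite strand, and another Maff window, further upstream in the gene, held it as well, against 12.4% of promoters. A CCAAT match was found in 3 of the 11 windows, against 37.4% of promoters. It lay at position -65 of Jun, at position -36 of Junb and, on the opposite strand, at position 6 of Atf3. The GC box was found in 8 of the 11 windows, with 5 matches in Atf3, against 35.7% of promoters. TATAAA was found in Fos and Junb (13.6%). The AP-1 element (7.81%) and the CArG box (1.63%) matched in 0 of the 11 windows, which says only that these letters are not in these stretches.

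Of the 14 mouse probe sets 13 were above the low-signal limit and 11 of these had a positive log2 difference, where 48% of all probe sets tested did. Both ventilated arrays lay above both controls for 8 of 13, against 13.6% of all probe sets tested, and both lay below for 0, against 14.3%. At an unadjusted p under 0.05, 6 of 13 were higher, against 1.58% of all. The 6 are both Atf3 probe sets tested, Maff, Jun, one of Junb and Mafk. Maff, counted in each of these shares of higher probe sets, passed the low-signal limit only through its ventilated arrays. These shares describe the members and are not a test of the list. The median log2 difference over the 10 genes, each by its brightest probe set, was 0.82, and over all probe sets tested it was -0.016.

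**Figure D1:**
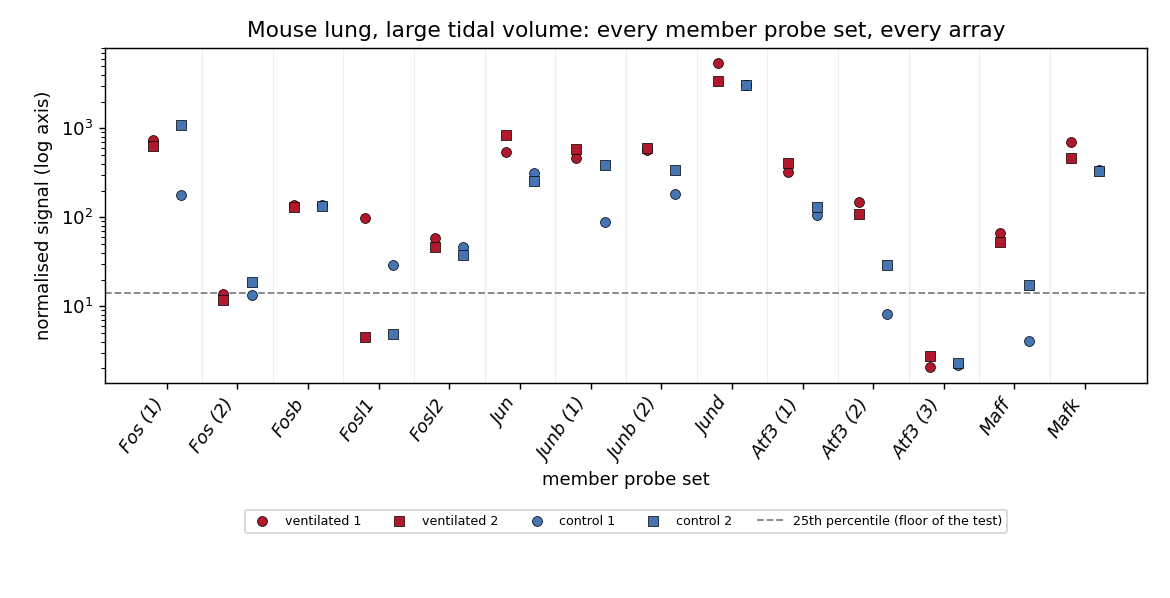
Normalised signal (log axis) of each of the 14 member probe sets in the mouse, with ventilated arrays in red to the left of control arrays in blue; circles are replicate 1 and squares replicate 2, and the dashed line is the 25th percentile of all signals. Numbers in brackets tell probe sets of one gene apart. Both red points lie above both blue points for Jun, Junb, Jund, Atf3 (1) and (2), Maff and Mafk, and the blue points of Fos (1) are far apart.

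Among the Fos proteins, the value of Fos itself turned on the control arrays. Its bright probe set 160901_at read 734 and 633 on ventilated arrays 1 and 2, against 179 and 1096 on control arrays 1 and 2. The highest and the lowest of the 4 signals were therefore both controls, which differed 6.13-fold, and the ventilated arrays lay between them. The log2 difference was 0.62 ± 0.78 (SE, n = 2 arrays per group; 95% interval -1.27 to 2.52; limma adjusted p = 0.999). Without control 1 it was -0.70, and without control 2 it was 1.94. The second Fos probe set, 161716_at, stayed between 11.7 on ventilated 2 and 18.7 on control 2, and 3 of its 4 signals were under the floor.

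Fosb, which encodes a Fos protein known for long-lived splice forms, had the smallest difference of the mouse members. Probe set 103990_at read 138 and 130.2 on ventilated arrays 1 and 2, against 138 and 134 on control arrays 1 and 2. All 4 signals lay close together, and the log2 difference was -0.018 ± 0.30 (SE, n = 2 arrays per group; 95% interval -0.74 to 0.71; limma adjusted p = 0.999). Fosl1, or Fra-1, a Fos protein that lacks a transactivation domain, had a strong signal on a single array: probe set 99835_at read 99.0 and 4.47 on ventilated arrays 1 and 2, against 29.3 and 4.92 on control arrays 1 and 2. Ventilated 1 was highest and control 1 was next, while the second array of each group was under the floor, so that the log2 difference of 0.88 ± 0.92 (SE, n = 2 arrays per group; 95% interval -1.37 to 3.12; limma adjusted p = 0.999) depends on the floor and rests on ventilated 1; ventilated 2 alone stood at -0.52 from the control mean. Fosl2, or Fra-2, read 58.0 and 46.1 on ventilated arrays 1 and 2, against 46.5 and 38.0 on control arrays 1 and 2, with probe set 103546_at. Its highest signal was ventilated 1 and its lowest control 2, with the other two level, and the log2 difference was 0.30 ± 0.38 (SE, n = 2 arrays per group; 95% interval -0.62 to 1.22; limma adjusted p = 0.999).

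The Jun genes were higher on both ventilated mouse arrays. Jun, the central AP-1 partner, read 545 and 851 on ventilated arrays 1 and 2, against 316 and 254 on control arrays 1 and 2, with probe set 100130_at. Ventilated 2 was highest, and the groups did not overlap. Ventilated minus control, the log2 value was 1.27 ± 0.32 (SE, n = 2 arrays per group; 95% interval 0.50 to 2.03; limma adjusted p = 0.999), from means of 698 ± 216 in ventilated and 285 ± 43.7 in control lungs (SD, n = 2 each). Without any single array it lay between 0.93 and 1.57.

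Junb, a Jun protein with weaker transactivation that can oppose Jun, was measured by a pair of probe sets. Probe set 102363_r_at read 572 and 602 on ventilated arrays 1 and 2, against 181 and 344 on control arrays 1 and 2. Probe set 102362_i_at read 468 and 589.9 on ventilated arrays 1 and 2, against 87.5 and 383 on control arrays 1 and 2. In both, control 1 was the lowest array and control 2 lay nearer to the ventilated arrays, as it did for Fos. The log2 differences were 1.23 ± 0.36 (SE, n = 2 arrays per group; 95% interval 0.35 to 2.11; limma adjusted p = 0.999) and 1.52 ± 0.66 (SE, n = 2 arrays per group; 95% interval -0.088 to 3.13; limma adjusted p = 0.999), in that order. Without control 1 they were 0.78 and 0.46.

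Jund, the Jun gene of resting cells, read 5423 and 3407 on ventilated arrays 1 and 2, against 3043 and 3088 on control arrays 1 and 2, with probe set 102364_at. The controls were level and ventilated 1 stood well above the other 3 arrays. The log2 difference of 0.49 ± 0.27 (SE, n = 2 arrays per group; 95% interval -0.18 to 1.15; limma adjusted p = 0.999) was 0.15 without ventilated 1.

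Atf3 had 3 mouse probe sets, of which 2 carried signal. Probe set 104155_f_at read 325 and 404 on ventilated arrays 1 and 2, against 107 and 129.8 on control arrays 1 and 2, with means of 365 ± 56.1 in ventilated and 118 ± 16.3 in control lungs (SD, n = 2 each). Probe set 104156_r_at read 149 and 110.2 on ventilated arrays 1 and 2, against 8.22 and 29.1 on control arrays 1 and 2. Every ventilated signal was more than any control signal of the same probe set, and control 1 was the lowest array in both. On the log2 scale the difference was 1.62 ± 0.30 (SE, n = 2 arrays per group; 95% interval 0.90 to 2.35; limma adjusted p = 0.999) for the first and 2.65 ± 0.48 (SE, n = 2 arrays per group; 95% interval 1.5 to 3.81; limma adjusted p = 0.999) for the second, whose size depends on the floor because control 1 was under it. The 2.65 of the second ranked at percentile 99.96 of all changes in the mouse. Without ventilated 1 the values were 1.8 and 2.5. The third probe set, 161645_r_at, had signals between 2.05 and 2.77 on all 4 arrays, under the floor, and was not tested.

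The small Maf genes were both higher in ventilated mice. Maff read 67.4 and 52.1 on ventilated arrays 1 and 2, against 4.08 and 17.3 on control arrays 1 and 2, with its single probe set, 100302_at. The groups did not overlap, and control 1 was under the floor. The control mean of 10.7 was under the low-signal limit, so Maff was tested only through its ventilated arrays. The log2 difference was 1.92 ± 0.39 (SE, n = 2 arrays per group; 95% interval 0.97 to 2.86; limma adjusted p = 0.999), and it was 0.72 with the floor at the 40th percentile and 2.82 with a floor of 1. Without any single array it lay between 1.79 and 2.07. Mafk read 702 and 462 on ventilated arrays 1 and 2, against 339 and 334 on control arrays 1 and 2, with probe set 102919_at. Its controls were level and ventilated 1 was highest. Ventilated minus control, the log2 value was 0.76 ± 0.30 (SE, n = 2 arrays per group; 95% interval 0.040 to 1.48; limma adjusted p = 0.999), and 0.45 without ventilated 1.

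With ventilated 1 set aside, an alternative added after the data were seen, ventilated 2 alone lay above both controls for 8 of 13 member probe sets, against 28.6% of all. A count of at least 8 was fixed in advance and is no separate check. These 8 are the same probe sets that lay above with both arrays, and no other joined them. Ventilated 2 lay below both controls for 3, against 29.9% of all. They were those of Fosb, and those of Fosl1 and the dim one of Fos at signals under the floor, which have no order. Ventilated 1 alone lay above both controls for 11 of 13, against 35.4% of all. Jun, Junb and Atf3 were brightest on ventilated 2 at their brightest probe sets. Fosb, Fosl1, Fosl2, Jund, Maff, Mafk and the second Atf3 probe set were brightest on ventilated 1, the array with the high neutrophil marker sum and spike-ins.

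**Figure D2:**
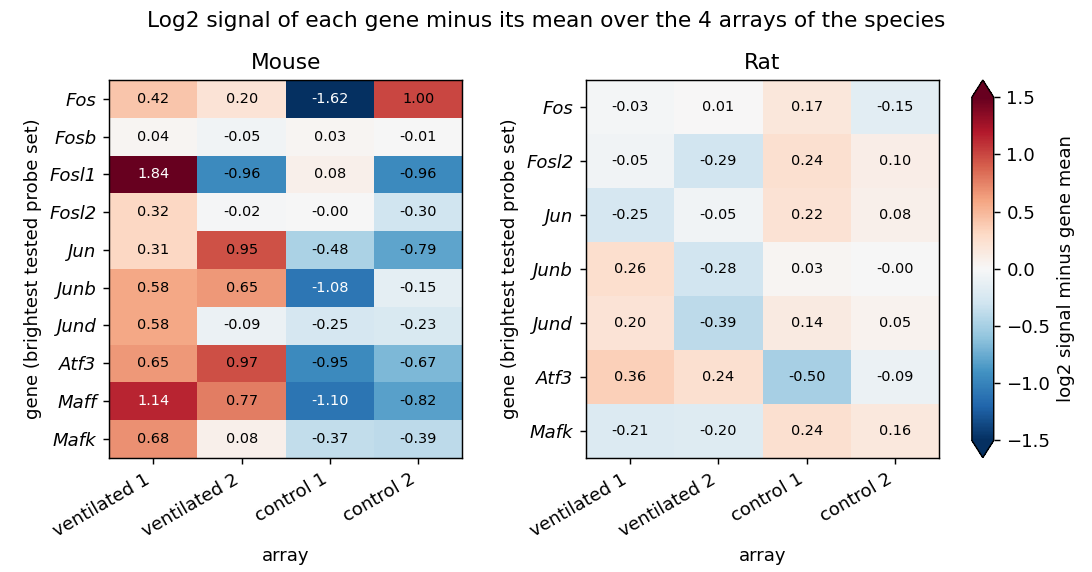
Log2 signal of each member gene, by its brightest tested probe set, minus the mean of that gene over the 4 arrays of its species; columns are arrays, ventilated left of control, and the colour scale is in log2 units. In the mouse, Jun, Junb, Atf3 and Maff are positive on both ventilated arrays and negative on both controls, Fos ranges from -1.62 on control 1 to 1.0 on control 2, and Fosl1 stands at 1.84 on ventilated 1. In the rat most values lie within 0.30 of 0, and Atf3 at -0.50 on control 1 is the farthest from it.

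The rat comparison used a lower tidal volume than the mouse comparison. Of 15 probe sets 14 were tested, and 0 were called higher and 0 lower, against 2.75% and 3.22% of all probe sets tested. Both ventilated arrays lay above both controls for 2, of Atf3 and of Fos (X06769cds_at), and below for 5 of 14, against 27.1% and 27.5% of all. The log2 difference was positive for 5 of 14, against 48.6% of all. At an unadjusted p under 0.05, 1 was higher and 1 lower, against 12.6% and 12%. The median log2 difference over the 7 genes tested was -0.19, and over all probe sets tested -0.019. The standard errors were smaller than in the mouse, with a median of 0.21 over the rat members and 0.38 over the mouse members.

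**Figure D3:**
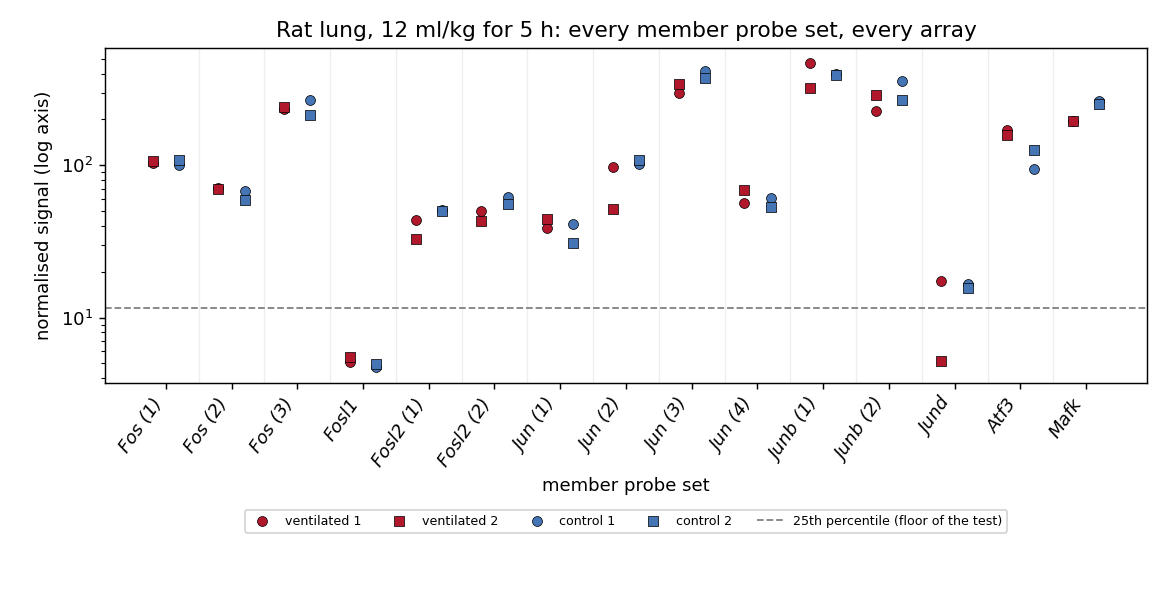
Normalised signal (log axis) of each of the 15 member probe sets in the rat, drawn as for the mouse. Red and blue points lie close together for most probe sets; Atf3 and Fos (2) are higher on both ventilated arrays, and Mafk, both Fosl2 and 2 of the Jun probe sets are lower.

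Atf3 was the rat member with the largest positive difference. Probe set M63282_at read 171 and 157 on ventilated arrays 1 and 2, against 94.6 and 125 on control arrays 1 and 2. The groups did not overlap, with means of 164 ± 9.55 in ventilated and 109.9 ± 21.6 in control lungs (SD, n = 2 each). On the log2 scale the difference was 0.59 ± 0.20 (SE, n = 2 arrays per group; 95% interval 0.10 to 1.08; limma adjusted p = 0.144), and it lay between 0.40 and 0.80 without any single array. Mafk was lower on both ventilated arrays: probe set rc_AA799744_at read 194 and 196 on ventilated arrays 1 and 2, against 266 and 251 on control arrays 1 and 2. Both groups were tight, and the log2 difference was -0.41 ± 0.15 (SE, n = 2 arrays per group; 95% interval -0.76 to -0.055; limma adjusted p = 0.155), between -0.45 and -0.38 without any single array.

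In the rat Fos family, the brightest Fos probe set, X06769cds_g_at, read 234 and 241 on ventilated arrays 1 and 2, against 269 and 215 on control arrays 1 and 2, and its log2 difference was -0.020 ± 0.17 (SE, n = 2 arrays per group; 95% interval -0.43 to 0.39; limma adjusted p = 0.958). A log2 difference of 1 lies outside the interval of Fos on either side, and the other 2 Fos probe sets gave 0.14 (X06769cds_at, higher on both ventilated arrays) and 0.0070. Fosl2 was lower on both ventilated arrays with both of its probe sets. U18982_s_at read 50.3 and 42.8 on ventilated arrays 1 and 2, against 61.6 and 56.0 on control arrays 1 and 2, and its log2 difference was -0.34 ± 0.23 (SE, n = 2 arrays per group; 95% interval -0.90 to 0.22; limma adjusted p = 0.421). The other, rc_AI230842_at, gave -0.41 ± 0.25 (SE, n = 2 arrays per group; 95% interval -1.03 to 0.20; limma adjusted p = 0.376). Fosl1 read between 4.70 and 5.53 on all 4 arrays, under the floor, and was not tested.

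The 4 Jun probe sets of the rat disagreed with each other. The brightest, rc_AI175959_at, read 299 and 344 on ventilated arrays 1 and 2, against 413 and 376 on control arrays 1 and 2, both ventilated arrays being lower, and its log2 difference was -0.30 ± 0.15 (SE, n = 2 arrays per group; 95% interval -0.65 to 0.058; limma adjusted p = 0.275). Probe set rc_AA945867_at was lower as well, at -0.58 ± 0.32 (SE), mainly through 51.5 on ventilated 2. The other 2 overlapped between the groups, at 0.22 ± 0.27 and 0.14 ± 0.23 (SE). Junb read 469 and 323 on ventilated arrays 1 and 2, against 400.3 and 393 on control arrays 1 and 2, with its brighter probe set, rc_AA891041_at. The highest and the lowest of these signals were both ventilated arrays, and the log2 difference was -0.028 ± 0.20 (SE, n = 2 arrays per group; 95% interval -0.51 to 0.45; limma adjusted p = 0.949). The dimmer Junb probe set, X54686cds_at, gave -0.28 ± 0.21 (SE), also with overlap. Jund read 17.4 and 5.17 on ventilated arrays 1 and 2, against 16.6 and 15.7 on control arrays 1 and 2, near or under the floor on every array.

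**Figure D4:**
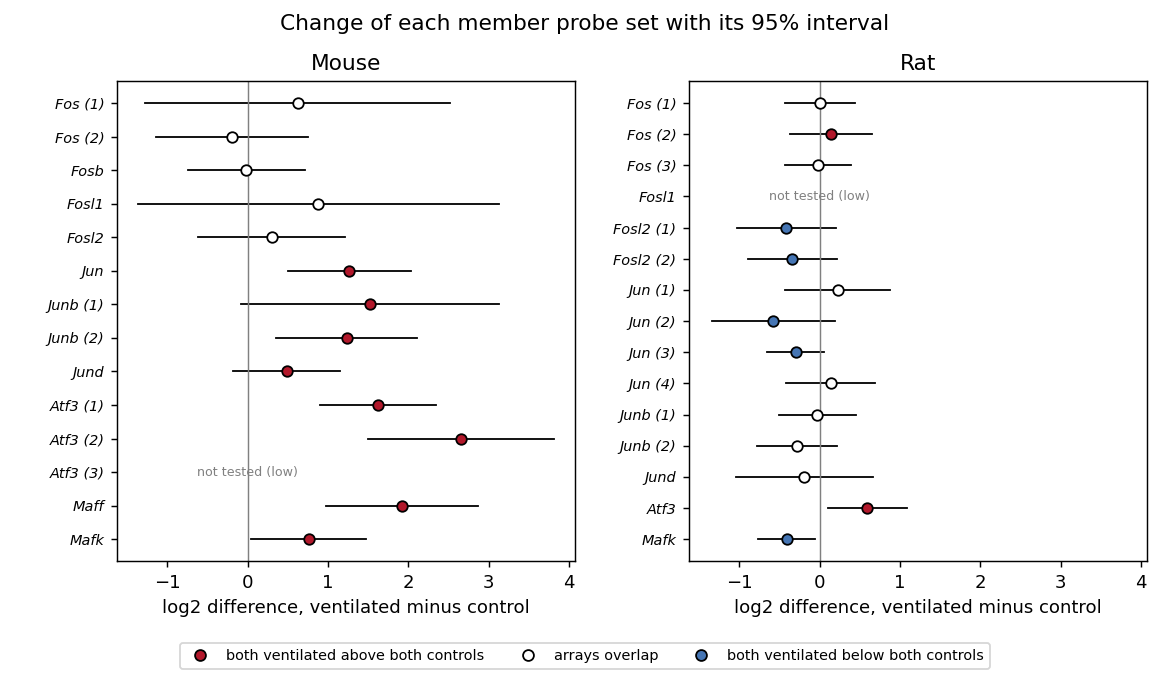
Log2 difference, ventilated minus control, of each tested member probe set with its 95% interval from the limma fit, mouse left and rat right on the same axis; red points have both ventilated arrays above both controls, blue points both below, and white points overlap. The mouse intervals of Jun, Junb (2), Atf3 (1) and (2), Maff and Mafk lie above 0 before adjustment, and in the rat those of Atf3 and Mafk leave 0 out on opposite sides.

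Of the 10 genes, 7 were tested in both species. In the joint fit over 2256 genes with species as a block, Atf3 had the smallest unadjusted p of all genes. Its joint log2 difference was 1.11 ± 0.25 (SE, n = 4 arrays per group; limma adjusted p = 0.635), and all 4 ventilated arrays lay above the controls of their species. No gene was called in that fit, and 173 genes (7.67%) had an unadjusted p under 0.05, among them 1 of the 7 members. The joint difference was positive for 6 of 7 members, against 49.9% of genes. For the other members it was 0.60 ± 0.30 for Junb, 0.48 ± 0.31 for Jun, 0.30 ± 0.46 for Fos, 0.18 ± 0.26 for Mafk, 0.15 ± 0.23 for Jund and -0.021 ± 0.23 for Fosl2 (SE).

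The difference between the species was tested as the change in mice minus the change in rats. It was positive for 7 of 7 members, against 49.1% of genes, and had an unadjusted p under 0.05 for 4 of 7, against 12.7%. No member passed after adjustment, in a fit that called 0.133% of genes, 0.0887% with a positive difference and 0.0443% with a negative one. The difference was 1.56 ± 0.36 (SE, n = 2 arrays per group; limma adjusted p = 0.136) for Jun, 1.26 ± 0.45 (SE, n = 2 arrays per group; limma adjusted p = 0.308) for Junb, 1.17 ± 0.34 (SE, n = 2 arrays per group; limma adjusted p = 0.209) for Mafk and 1.03 ± 0.36 (SE, n = 2 arrays per group; limma adjusted p = 0.302) for Atf3. Jun passed without ventilated mouse array 1, at 1.87 (limma adjusted p = 0.0400, with 0.0400 to 0.478 over all alternatives), where 0.888% of all genes passed. Mafk passed without ventilated mouse array 2, at 1.46 (limma adjusted p = 0.0372, with 0.0372 to 0.610 over all alternatives), where 3.6% of all genes passed. Species, strain, tidal volume, duration, cannula and array design differ together here and cannot be told apart.

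Profiles were also set side by side over the 8 arrays, each species centred on its own mean. Among members the Pearson r was 0.84 for Atf3 and Junb, 0.76 for Atf3 and Jun, 0.84 for Fosl2 and Mafk and 0.12 for Fos and Jun. Outside the members, the 3 genes most like Atf3 were Phgdh, Pmpca and B4galt1 (0.98, 0.94 and 0.93), those most like Jun were Nfkbia, Mpp3 and Errfi1 (0.97, 0.97 and 0.97), and those most like Junb were Pim3, Grk6 and Ptafr (0.93, 0.93 and 0.91). The 3 most like Mafk were Pde4b, Lpl and Ptpn1 (0.98, 0.97 and 0.96), and the 3 most like Fos were Cldn7, Clta and P2rx6 (0.98, 0.98 and 0.96). For Jund they were Tnfrsf8, Anxa3 and Rara (0.96, 0.95 and 0.93), and for Fosl2 Sstr4, Nes and Tcn2 (0.96, 0.96 and 0.93). These are the highest of 2256 values over n = 8 arrays that the genes share, and they describe likeness only.

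Genes around the members were read from related lists, by the brightest probe set of each gene. For comparison 46.8% of all 6888 mouse genes and 49.3% of all 3876 rat genes tested had a positive log2 difference, with medians of -0.026 and -0.0074. Both ventilated arrays lay above both controls for 13% of mouse and 27.8% of rat genes tested, and below for 14.5% and 27.2%. By the same measure, 3 above and 0 below of 10 other bZIP genes lay apart in the mouse, 1 above and 0 below of 5 other Maf, CNC and Bach genes, 4 above and 2 below of 20 upstream genes and 5 above and 1 below of 8 feedback genes. In the rat these counts were 3 above and 0 below of 5, 0 above and 1 below of 2, 2 above and 3 below of 10 and 1 above and 2 below of 5. No mouse gene of any list was called. In the rat 5.96% of all probe sets tested were called, the share to set beside each list count. Each rat call given here was lost when any 1 rat array was left out, as were all other rat calls. That loss therefore says nothing of these genes in particular. The calls given here lie between the same arrays as the shift in T cell and fat markers, whose part in them was not tested.

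Among other bZIP genes of the ATF, CREB and related families, 9 of 10 mouse genes were positive, with a median log2 difference of 0.36. Nfil3, a bZIP repressor, read 217 and 84.5 on ventilated arrays 1 and 2, against 22.7 and 33.7 on control arrays 1 and 2, both ventilated arrays being higher (2.29 ± 0.54, SE). In the rat 4 of 5 were positive and 1 was called: Crem, the cAMP-responsive modulator, rose by 0.77 ± 0.15 on the log2 scale (SE, n = 2 arrays per group; limma adjusted p = 0.0403). Crem was also higher on both ventilated mouse arrays, at 1.19 ± 0.52 (SE), without a call. Partners of the small Mafs, the other Maf, CNC and Bach genes, were positive for 4 of 5 mouse genes, among them the heme-sensing repressor Bach1 at 0.56 ± 0.24 (SE), and for 1 of 2 rat genes. Nfe2l2, the Nrf2 gene, stood at 0.33 ± 0.45 (SE) in the mouse through ventilated 1 alone: it read 1032 and 409.5 on ventilated arrays 1 and 2, against 534 and 501 on control arrays 1 and 2, so that ventilated 2 lay below both controls, at -0.34 from their mean.

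Upstream of AP-1, the MAP kinases with SRF and the ELK factors were positive for 12 of 20 genes in the mouse and 7 of 10 in the rat, with medians of 0.072 and 0.13. One was called, Map3k1, a kinase of the JNK cascade, which fell by 0.75 on the log2 scale in the rat (SE 0.15, n = 2 arrays per group; limma adjusted p = 0.0380). The feedback phosphatases and Sprouty proteins of the pathway had medians on opposite sides of 0: 6 of 8 were positive in the mouse, with a median of 0.65, and 1 of 5 in the rat, with a median of -0.31. None was called, and the difference between the lists was not tested. Dusp1, a MAP kinase phosphatase and itself an immediate early gene, read 2561 and 2009 on ventilated arrays 1 and 2, against 974 and 1363 on control arrays 1 and 2 in the mouse. In the rat it read 606 and 605 on ventilated arrays 1 and 2, against 847 and 769 on control arrays 1 and 2. Ventilated arrays were all higher in the mouse and all lower in the rat, at 0.98 ± 0.27 and -0.41 ± 0.12 (SE). The ERK phosphatase gene Dusp6 stood at 1.11 ± 0.35 in the mouse (SE).

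Textbook AP-1 targets, many of which answer to other factors too, were positive for 14 of 18 mouse genes, with a median of 0.30, and for 12 of 20 rat genes, with a median of 0.036. In the mouse 1 of 18 lay above both controls on both ventilated arrays and 2 lay below, against 13% and 14.5% of all genes. In the rat 8 of 20 lay above and 4 below, against 27.8% and 27.2% of all genes. Mouse list medians by array, relative to each gene's mean, were 0.74 and -0.37 on ventilated 1 and 2 and -0.44 and 0.24 on control 1 and 2, so ventilated 1, the array with the high neutrophil marker sum, stood highest; the part of those cells was not tested. Plaur, the urokinase receptor gene, read 461 and 250.2 on ventilated arrays 1 and 2, against 101 and 117 on control arrays 1 and 2, and of the 4 mouse targets of smallest p it was the one higher on both ventilated arrays (1.64 ± 0.38, SE). The cytokine gene Il1b read 389 and 59.3 on ventilated arrays 1 and 2, against 10.0 and 107 on control arrays 1 and 2, with ventilated 2 between the controls. In the rat 3 of 20 targets were called, against 5.96% of all probe sets tested. Ccl2, a monocyte chemokine gene, rose by 1.2 ± 0.18 (SE, n = 2 arrays per group; limma adjusted p = 0.0194). Il6, a cytokine gene, read 41.5 and 40.3 on ventilated arrays 1 and 2, against 10.4 and 1.8 on control arrays 1 and 2. Both controls were under the floor and set to it, which gave a rise of at least 3.56-fold (limma adjusted p = 0.0205). The floor removed the spread between these controls, so the p-value does not measure it. Il6 also passed the low-signal limit only through its ventilated arrays. Mmp12, the macrophage elastase gene, read 48.4 and 32.3 on ventilated arrays 1 and 2, against 15.2 and 16.8 on control arrays 1 and 2, higher on both ventilated arrays without a call. Vegfa, an endothelial growth factor gene, fell by 0.68 (SE 0.14, n = 2 arrays per group; limma adjusted p = 0.0414).

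Nrf2 and small Maf targets, antioxidant genes for the most part, were positive for 12 of 18 mouse genes, with a median of 0.37, and their medians by array were 0.55 and -0.31 on ventilated 1 and 2 and -0.46 and -0.017 on control 1 and 2. In the mouse 2 of 18 lay above both controls on both ventilated arrays and 3 lay below, against 13% and 14.5% of all genes. In the rat 6 of 15 lay above and 2 below, against 27.8% and 27.2% of all genes. Srxn1, which encodes the peroxiredoxin repair enzyme sulfiredoxin, read 963 and 56.1 on ventilated arrays 1 and 2, against 25.9 and 61.1 on control arrays 1 and 2, high on ventilated 1 alone. Gclc, the catalytic subunit gene of glutathione synthesis, had the same array on top, reading 2056 and 442 on ventilated arrays 1 and 2, against 292 and 419.6 on control arrays 1 and 2. In the rat 10 of 15 were positive and Tkt, a pentose phosphate enzyme gene, rose by 0.59 ± 0.12 (SE, n = 2 arrays per group; limma adjusted p = 0.0461). Nqo1, the quinone reductase gene, stood at 0.59 ± 0.13 (SE) without a call.

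The other immediate early genes were positive for 21 of 25 genes in the mouse, with a median of 0.64. Both ventilated arrays lay apart from both controls for 15 above and 0 below of 25, against 13% and 14.5% of all mouse genes. Of the 25, 13 were highest on ventilated 2, 8 on ventilated 1 and 4 on control 2. Medians were 0.23 and 0.36 on ventilated 1 and 2 and -0.53 and -0.32 on control 1 and 2. In the rat 7 of 21 were positive, with a median of -0.21. On both ventilated arrays 6 lay above both controls and 9 below, against 27.8% and 27.2% of all rat genes. Of the 21, 2 were called, against 5.96% of all rat probe sets tested. Zfp36, whose protein promotes decay of cytokine mRNA, fell by 0.74 (SE 0.14, n = 2 arrays per group; limma adjusted p = 0.0357), and Klf4, an endothelial and epithelial factor, by 0.63 (SE 0.13, n = 2 arrays per group; limma adjusted p = 0.0488). In the mouse both genes had their ventilated arrays above the controls, at 1.11 ± 0.26 for Zfp36 and 1.06 ± 0.22 for Klf4 (SE). Cebpd, a C/EBP factor of the acute phase, had level replicates in the mouse, reading 2816 and 2788 on ventilated arrays 1 and 2, against 911 and 899 on control arrays 1 and 2.

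**Figure D5:**
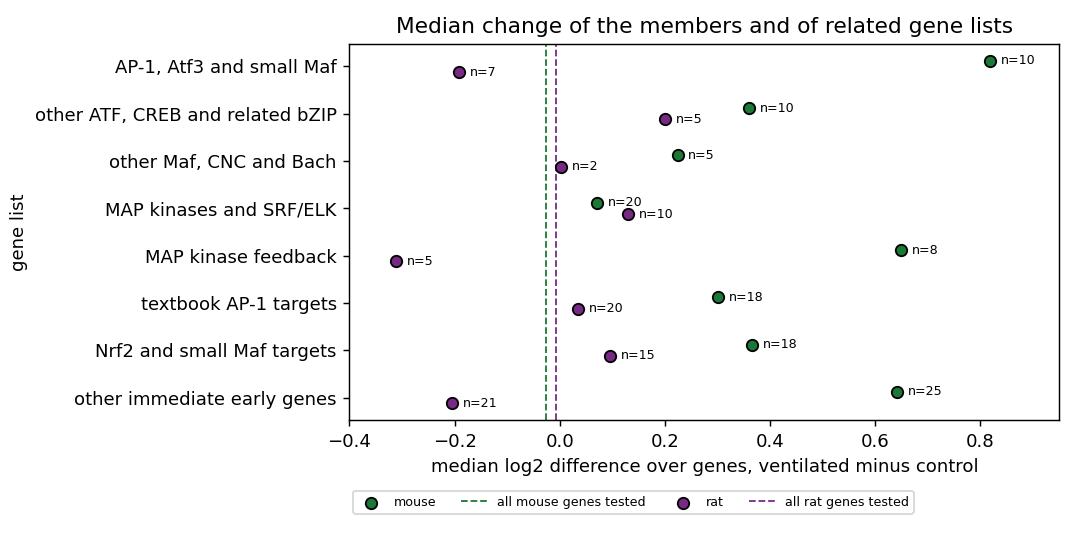
Median log2 difference, ventilated minus control, over the tested genes of the members and of each related list, mouse in green and rat in purple, with the number of genes beside each point; dashed lines are the medians of all genes tested. The members, the MAP kinase feedback genes and the other immediate early genes lie right of the lines in the mouse and left of them in the rat.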

How the data were processed

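Lung RNA was hybridised to 1 Affymetrix array per sample. The authors deposited 1 linear signal intensity per probe set; the trimmed means of 149 to 150 on every array, with 2% off each end, come from the values and no step behind them is stated. The software that made the signals is not given in the labels, and 8 files describing the runs, which carry no signal, were not used. Probe sets were named with the supplied annotation: 10833 of 12422 had 1 symbol in the mouse, 396 several and 1193 none, and 7006, 308 and 1426 of 8740 in the rat. Array signals have no counting depth, and 2 arrays per group limit the precision.

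Within a species the arrays were quantile-normalised, with control probe sets (66 in the mouse) set aside. Probe sets with a mean above the 25th percentile were fitted with limma 3.58.1 in R 4.3.3 (lmFit, eBayes with a variance trend), two-sided, with Benjamini-Hochberg adjustment; joint and interaction fits used the brightest probe set of each gene. The members and lists were chosen with earlier results of these data known, and named list genes are the 4 of smallest p per species and those called. Same-numbered arrays showed no pairing by number: replicate 1 minus replicate 2 correlated between the groups at -0.28 in the mouse and -0.079 in the rat. In the mouse the likeness was crossed, with ventilated 1 most like control 2 and ventilated 2 most like control 1. Alternatives were other scalings, floors, filters, probe-set rules, variance priors and thresholds, a replicate block and each array left out. The fits were also run on simulated data with independent noise. Those data lacked the crossed likeness of the mouse arrays, so that run cannot vouch for the fits on these arrays.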

Additional observations from a re-analysis of the deposited data

Results flagged for a closer look

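In 10 genes, each read by its brightest probe set, the ventilated arrays of one species all lay above its controls and those of the other all below. They are 2 of the 7 members and 8 of the 27 named list genes measured in both species, and the named genes had been taken by smallest p. Over all 65 list genes in both species it was 11 (16.9%), and over all 2256 genes 9.09%. The change in mice minus the change in rats was, on the log2 scale, 1.56 for Jun and 1.17 for Mafk among the members. For Jun this holds at the brightest rat probe set, while 2 of its 4 rat probe sets overlapped between the groups, at 0.22 and 0.14. Among the immediate early and feedback genes it was 2.0 for Cebpd, 1.85 for Zfp36, 1.69 for Klf4, 1.41 for Klf10, 1.39 for Dusp1 and 1.19 for Id1, all higher in ventilated mice and lower in ventilated rats. Mmp12, a macrophage elastase gene, and Tkt went the other way, at -2.27 for Mmp12 and -0.86 for Tkt. In the limma test of this difference the adjusted p was 0.0427 for Cebpd, 0.0553 for Klf4 and 0.0607 for Zfp36, and it lay between 0.118 for Dusp1 and 0.253 for Tkt in the remaining 7.

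The hybridisation spike-ins, which the comparisons do not use, were 2.62 times the control mean on ventilated mouse array 1.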

How the results depend on the processing

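The mouse members kept their direction under every alternative in which they were tested for Jun, Junb, Jund, Atf3, Maff, Mafk and Fosl2, and no member was called in the mouse, rat or joint fit under any of them. In the rat Atf3, Mafk and Fosl2 kept theirs. Mouse Fosl1 fell under the filter without ventilated 1 and was not fitted there; ventilated 2 alone stood at -0.52 from its control mean, the opposite direction. Reversed values were small except for Fos without mouse control 1, at -0.70 in the mouse, -0.29 in both species together and -0.68 as mouse minus rat. Without 1 array Fos ranged over -0.70 to 1.94, -0.29 to 0.76 and -0.68 to 1.96 in these fits. Mouse Fosb was 0.0022 after cyclic loess, and up to 0.025 without 1 array, where its lowest was -0.063. Rat Junb (rc_AA891041_at) was 0.10 with median scaling, 0.0088 as deposited, 0.0046 after loess and -0.30 to 0.24 without 1 array. Rat Fos was 0.086 (X06769cds_g_at) with median scaling and 0.043 as the mean of probe sets, -0.064 (X03347cds_g_at) as deposited and -0.0060 after loess, with ranges of -0.19 to 0.15 and -0.045 to 0.058 without 1 array. Without 1 array the range was -0.48 to 0.11 for rat Jund, -0.0039 to 0.28 for Jun (X17163cds_s_at), and in the joint fit -0.15 to 0.090 for Fosl2, -0.063 to 0.31 for Mafk and -0.056 to 0.34 for Jund, which was -0.14 with a floor of 1.

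Over all probe sets the rat fit called 395. It called 57 with the floor at the 40th percentile, 36 with no filter, 224 and 243 with the brightest or the mean probe set of a gene, 114 without the trend, 799 at an adjusted p under 0.10 and 0 without any 1 array. The mouse fit called 4 with no filter and 0 otherwise. The interaction called 3, and 10 with median scaling, 6 as deposited, 11 and 7 with the other floors, 22 with no filter, 7 with mean probe sets, 1 without the trend, 26 at 0.10, 0 with the replicate block and 0 to 81 without 1 array, with 0 to 1 member called. The cause of these moves was not tested. The replicate number as a block changed no member's call, and left 0 calls in the mouse and 408 in the rat. Crossed numbers as a block, added after the data were seen, gave 0 mouse calls. An array left out leaves 1 in its group, assumed to vary like the other group. Signals near the floor limit Maff, Fosl1, the second Atf3 probe set and rat Jund.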
